A study of Homo sapiens with 4 samples.

Results

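The genes described here encode the proteins of the mitochondrial ribosome. They were taken as every row of the count table whose symbol reads MRPL or MRPS followed by a number and at most 1 letter from A to C, which gave 78 of 61806 genes: 49 with a large subunit symbol (MRPL) and 29 with a small subunit symbol (MRPS). The rule used the symbol and no measured value. Poly(A) RNA was sequenced from 2 wild-type human cancer lines, MDA-MB-231, a breast cancer line, and MDA-MB-435, which the series title calls melanoma. Each line was sequenced once as a control and once after 6 h with 10 µM CPYPP, a small molecule known as an inhibitor of DOCK proteins, the activators of Rac, so each of the 4 conditions is 1 library. The labels do not say what the control cells received.

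Mitochondria carry their own ribosome, which makes the few membrane proteins of oxidative phosphorylation encoded in mitochondrial DNA. All of its proteins are encoded in the nucleus, made in the cytosol and imported, and they assemble on ribosomal RNAs transcribed inside the organelle. The small subunit decodes the message and the large subunit joins amino acids, and some proteins of both subunits descend from bacterial ribosomal proteins while others were added in the mitochondrial lineage. Symbol and place do not always match: MRPS30 and MRPS18A are built into the large subunit although their symbols read S, and MRPS36 is now known as a component of the 2-oxoglutarate dehydrogenase complex.

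The libraries held 17196385 to 22663954 counts, and the members were well covered. Their median count lay between 550 and 1125 per library, and 74 to 77 of the 78 had at least 100 counts. MRPL53 was the exception, with 5 and 1 counts in the MDA-MB-231 pair of libraries and 11 and 3 in the MDA-MB-435 pair. Of the markers used to check the lines, the melanocyte genes SOX10 and DCT had 0 to 3 counts in the MDA-MB-231 libraries and 464 to 3031 in the MDA-MB-435 libraries, whereas MLANA, TYR and PMEL had at most 34 counts in any library. MITF, also a melanocyte gene, did not separate the lines, with 1585 and 690 counts in the MDA-MB-231 pair of libraries against 1405 and 809 for MDA-MB-435. The epithelial genes EPCAM and CDH1 had 287 to 837 counts in MDA-MB-231 and 0 to 2 in MDA-MB-435. KRT8 had 12813 and 9549 against 522 and 310, while KRT18 was abundant in both lines (8212 and 5653 against 5740 and 4077). Of the mesenchymal genes, ZEB1 had 0 counts in both MDA-MB-435 libraries and 2038 and 2348 in MDA-MB-231. VIM and CD44 went the other way. VIM had 38484 and 24404 counts in MDA-MB-231 against 98483 and 68113 in MDA-MB-435, and CD44 had 27537 and 20016 against 36689 and 27990. The protocol text names MDA-MB-435 cells throughout, also for the other line, so the line of each library rests on its own title and cell line label.

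The question put to these genes was whether the 2 subunits changed after CPYPP, together or apart, in either line. They changed little. In each line, counts were scaled between the control and the CPYPP library by TMM, which sets the bulk of genes to no change. The median log2 fold change (CPYPP over control) was -0.07 over 77 members in MDA-MB-231 and 0.07 over 78 members in MDA-MB-435, beside -0.01 and -0.02 over all genes with at least 10 counts in 1 library of the pair. Because each condition is 1 library, these folds have no replicate check and no p-value, and the intervals given with them are 95% exact binomial intervals that cover counting error only.

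The members were also packed more closely than genes at large. The range between their quartiles was 0.24 log2 units in MDA-MB-231, and 0.25 in the other line, against 0.56 and 0.67 over all genes tested. All genes tested include many of low count, and the range was not computed without them. Nor was it particular to the members. It was 0.10 in both lines over cytosolic ribosomal proteins and 0.27 and 0.28 over mitochondrial chaperones and proteases. Translation factors (0.40 and 0.26) and assembly factors (0.47 and 0.28) were wider in MDA-MB-231. A modest limit of 0.32 log2 units was used to count changes. In MDA-MB-231, 1 member was higher by more than 0.32 and 10 were lower by more than that (1.3% and 13% of 77), where 22.9% and 21.8% of 16441 genes were. In MDA-MB-435, 5 were higher and 5 lower (6.41% each of 78), where 22% and 28.5% of 16527 genes were. The comparison of these shares was repeated without genes of low count. Among genes with at least 100 counts in both libraries, 1 member of 74 was higher and 8 were lower in MDA-MB-231 (1.35% and 10.8%), beside 18.2% and 12.8% of 10379 genes, so the share lower was then near the background. In MDA-MB-435, 5 of 77 were higher and 4 lower (6.49% and 5.19%), beside 22.9% and 14.3% of 10371 genes.

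**Figure D1:**
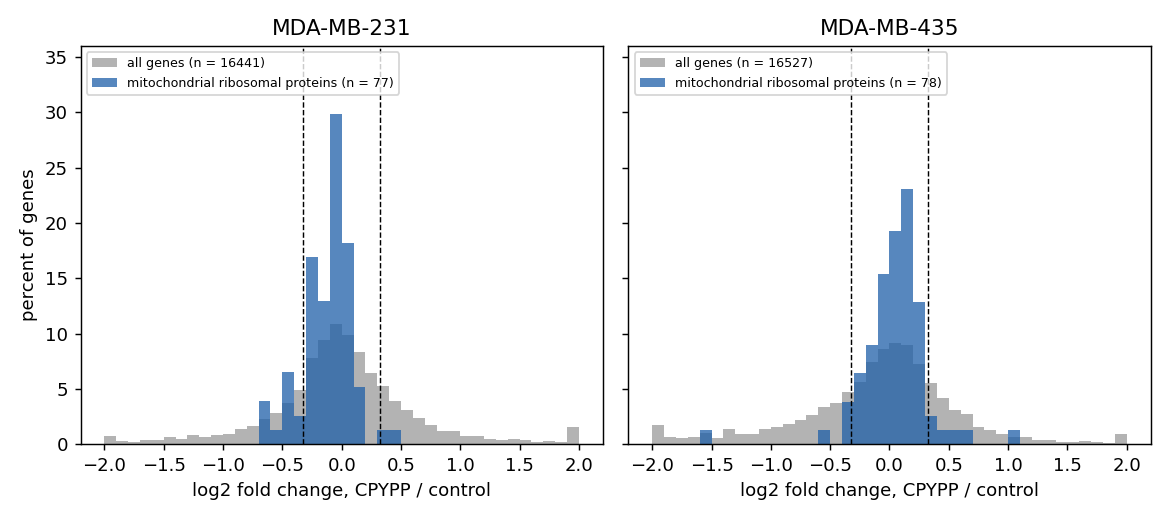
Distribution of the log2 fold change (CPYPP over control, x axis, values beyond 2 placed in the end bins) as percent of genes (y axis) for the mitochondrial ribosomal protein genes (blue) and all genes tested (grey) in each line, with dashed lines at 0.32 log2 units on each side of no change. The members sit in a narrow peak with 11 of 77 outside the dashed lines in MDA-MB-231 and 10 of 78 in MDA-MB-435.

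No member reached the 2-fold that the study used as its limit in MDA-MB-231, where 5.4% of genes were past 2-fold higher and 5.43% past 2-fold lower. In MDA-MB-435 MRPL18 was past it upwards and MRPL53 downwards, beside 4.02% and 9.75% of genes. MRPL53 rested on 11 and 3 counts, and the interval of its fold, 0.063 to 1.33, included no change.

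The 2 subunits were close to each other in both lines. In MDA-MB-231 the median was -0.09 for 48 large subunit symbols (SD 0.21 across genes) and -0.06 for 29 small subunit symbols (SD 0.21), a difference of -0.03. In MDA-MB-435 it was 0.05 for 49 large (SD 0.35) and 0.08 for 29 small (SD 0.16), a difference of -0.02. In both lines the difference between the medians was a small fraction of the spread among the genes of either subunit. The ratio of large to small subunit counts in MDA-MB-231 was 1.59 before and 1.58 after CPYPP, while in MDA-MB-435 it was 1.6 and then 1.64. The outlying genes were split unevenly, with no test of it: all 10 members past the limit of 0.32 in MDA-MB-435 carry large subunit symbols and none of the 29 small subunit symbols did so, whereas in MDA-MB-231 it was 7 large and 4 small. The split in MDA-MB-435 depended on the scaling. MRPS16 was at -0.27 there, and total counts and upper quartile scaling shifted all genes by -0.15 and -0.11, which takes it past the limit. MRPL53, among the 10, rested on 11 and 3 counts.

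The direction of the median was not the same in the 2 lines. In MDA-MB-231, 57 of 77 members were below no change, and in MDA-MB-435 29 of 78 were, beside 51.2% and 51.4% of all genes. Of the 77 members tested in both lines, 28 were lower in both, 20 were higher in both, 29 were lower in MDA-MB-231 and higher in MDA-MB-435, and 0 were the other way round. Over the 14262 genes tested in both lines, these counts were 4672, 4849, 2539 and 2202. The split of the members was not recounted under other scalings. The sign in MDA-MB-435 depended on the scaling: scaled to total counts the median was -0.08, with upper quartile scaling -0.04, with TMM over the 4 libraries -0.01, and 69.2%, 59% and 52.6% of members were then lower. Total counts and upper quartile scaling moved the median of all genes in this line by -0.15 and -0.11. Relative to the median of all genes, the members stood at -0.06 in MDA-MB-231, and at 0.08 for MDA-MB-435, under each of these scalings. A change of scaling shifts every gene of a line alike, so these distances could not change with it and are no check. These distances moved with the filter on low counts: once genes with under 100 counts were left out they were -0.07 and 0.00, and with no filter they were -0.31 and -0.13. As a share of all counts, the members made up 0.361% (exact binomial interval 0.358% to 0.363%) of the control and 0.324% (0.322% to 0.327%) of the CPYPP library in MDA-MB-231, and 0.461% (0.458% to 0.464%) and 0.438% (0.435% to 0.441%) in MDA-MB-435.

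Members that were relatively high or low in one line tended to be so in the other. Across the 77 members tested in both lines, Pearson's r between the log2 fold changes was 0.667 and Spearman's rho 0.633, as a description over genes that share the same 4 libraries. Over 14262 genes the values were 0.473 and 0.462. Those include many genes of low count, and the values were not computed without them. Among the other lists, Pearson's r ran from 0.0501 for cytosolic ribosomal proteins and 0.406 for assembly factors to 0.953 for mitochondrial chaperones and proteases. It was 0.725 for translation factors, so the agreement was not particular to the members. The lines share no control library.

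**Figure D2:**
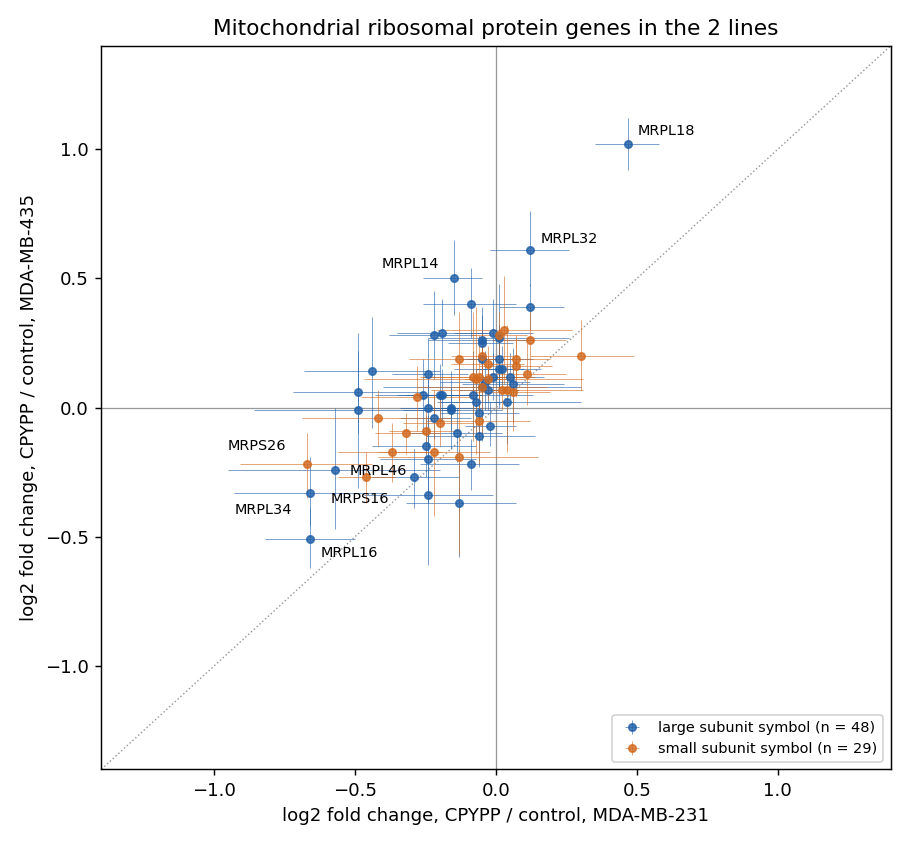
Log2 fold change (CPYPP over control) of 77 members in MDA-MB-231 (x axis) and MDA-MB-435 (y axis), with bars for the 95% counting interval, large subunit symbols in blue, small in orange, and a dotted line where both lines are equal. MRPL18 stands apart at the upper right and MRPL16 at the lower left, and most members lie above the dotted line.

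Genes that moved alike in both lines were sought by a model of all 4 libraries that holds the line as a block. It has 1 residual degree of freedom. Its p-values rest on what is left after line and treatment are fitted, which is how far the CPYPP change differed between the lines. That variation is pooled in part over genes, and none of the 4 libraries is a replicate of another. By edgeR's quasi-likelihood test with Benjamini-Hochberg adjustment over 16801 genes, 1 of 77 members rose and 1 fell, beside 4.39% of genes called higher and 2.85% called lower. They were MRPL18 and MRPL16. With the line left out of the model 0 members and 0 genes of the whole table were called by the same test (0 members at an unadjusted p under 0.05), and with libraries scaled to total counts or with DESeq2's Wald test 5 members were, 1 higher and 4 lower. In the fit with the line, at an unadjusted p under 0.05 there were 7 members (9.09%), beside 21.1% of all genes.

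MRPL18 is a large subunit protein with a bacterial homologue at the central protuberance, and its message is known to give also a cytosolic form of the protein under heat shock. Its level in CPM, the counts as a rate of the library size scaled within each line, was 54.7 in the control and 75.5 in the CPYPP library of MDA-MB-231. In MDA-MB-435 it was 59.8 and 121. The controls of the lines were close, and both CPYPP libraries were above both controls, as they were with scaling over the 4 libraries. The fold was 1.38 (counting interval 1.28 to 1.5) in MDA-MB-231 and 2.03 (1.9 to 2.17) in MDA-MB-435. The common log2 difference was 0.70 (SE 0.139, adjusted p = 0.0142 by edgeR's quasi-likelihood test), higher in 2 of 2 lines. The gene (ENSG00000112110) lies on the plus strand of chromosome 6 at 159789812 to 159798436 in GRCh38 coordinates.

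MRPL16, the homologue of the bacterial L16 protein near the A site of the large subunit, was the one member that fell. Its level was 44.1 CPM in the control and 27.9 in the CPYPP library of MDA-MB-231. The same values for MDA-MB-435 were 70.6 and 49.7. The CPYPP library was below its own control in each line, but that of MDA-MB-435 was above the control of MDA-MB-231 with either scaling. The folds were 0.632 (0.565 to 0.706) and 0.704 (0.649 to 0.763). The common log2 difference was -0.63 (SE 0.133, adjusted p = 0.0197 by edgeR's quasi-likelihood test). MRPL16 (ENSG00000166902) lies on the minus strand of chromosome 11 at 59806140 to 59810778.

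The next members on the low side did not pass the test. MRPS16, a small subunit protein with a bacterial homologue, went from 99 to 72.1 CPM in MDA-MB-231 and from 95.2 to 79 in MDA-MB-435 (common log2 difference -0.41, edgeR adjusted p = 0.0603). MRPL34, another protein of bacterial descent, went from 16.3 to 10.3 and from 48.2 to 38.5 (-0.52, edgeR adjusted p = 0.0728). MRPS26, a mitochondria-specific small subunit protein, went from 21.5 to 13.5 and from 51.7 to 44.3 (-0.48, edgeR adjusted p = 0.0995). In all 3 the CPYPP library was the lower of the pair in each line, and the counting interval of the fold left out no change. MRPL34 and MRPS16 passed the threshold with DESeq2's Wald test (adjusted p = 0.0315 and 0.00244), as did MRPL33 (0.0257), and MRPL34, MRPS16 and MRPS26 passed it when libraries were scaled to total counts. MRPL46, MRPL57, MRPL33 and MRPS34 completed the 8 lowest, with common log2 differences of -0.43, -0.33, -0.32 and -0.31 and edgeR adjusted p-values from 0.185 to 0.356.

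On the high side MRPL32 came second. It encodes a large subunit protein that needs cleavage by the m-AAA protease before it can join the ribosome. Its level was 43.3 and 47.1 CPM in MDA-MB-231, a fold of 1.09 (0.989 to 1.19), and 31.2 and 47.8 in MDA-MB-435, a fold of 1.53 (1.39 to 1.69). Beyond counting error it was therefore higher only in the MDA-MB-435 pair, and the difference between the lines was not tested. The common log2 difference was 0.32 (edgeR adjusted p = 0.257). MRPL47, MRPS18A, MRPS15, MRPL14, MRPS5 and MRPL22 followed, with common log2 differences from 0.22 down to 0.12 and edgeR adjusted p-values from 0.354 to 0.763. MRPS5 in MDA-MB-231 was at 0.03 and turned to -0.04 with total counts.

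**Figure D3:**
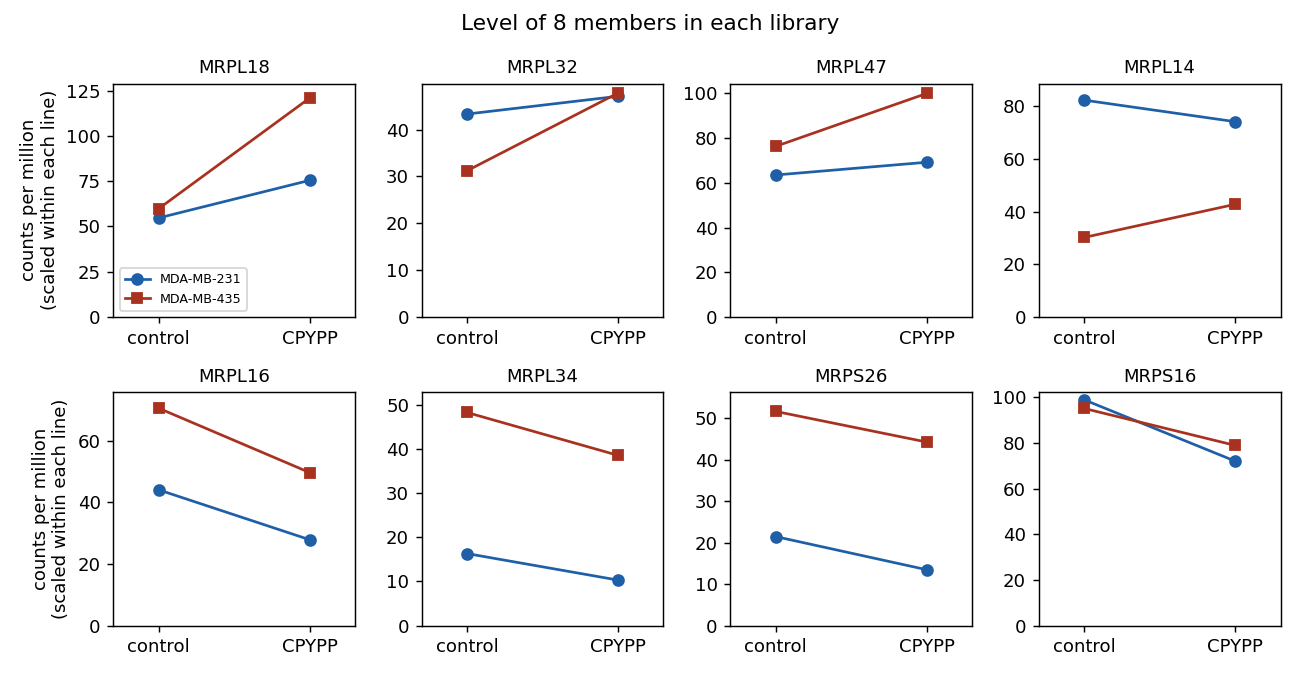
CPM (y axis from 0, scaled by TMM within each line) of 8 members in the control and CPYPP library of MDA-MB-231 (circles) and MDA-MB-435 (squares), with 1 library per point and no error bar. MRPL18 rises in both lines, from 54.7 to 75.5 and from 59.8 to 121, MRPL14 moves in opposite directions, and the 4 members of the lower row are lower after CPYPP in both lines.

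The members past the limit of 0.32 make up the rest of the picture. In MDA-MB-231 the 10 lower members were MRPL16, MRPL34, MRPL46, MRPL55, MRPL41 and MRPL2 of the large subunit and MRPS26, MRPS16, MRPS21 and MRPS34 of the small subunit, with folds from 0.627 for MRPS26 to 0.771 for MRPS34. MRPS18B, at 0.802, lay just outside. In MDA-MB-435 the 5 higher members were MRPL18, MRPL32, MRPL14, MRPL22 and MRPL47, with folds from 1.31 to 2.03, and the lower ones were MRPL53, MRPL16, MRPL57, MRPL36 and MRPL34. Only MRPL16 and MRPL34 were past it downwards in both lines, and only MRPL18 upwards in both.

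Of the 29 members with opposite signs in the 2 lines, 3 differed from no change beyond counting error in both, and the 4 with the widest gap between the lines are described here. MRPL14, a large subunit protein at the face that meets the small subunit and the docking place of an assembly factor, was 0.901-fold (0.838 to 0.968) in MDA-MB-231, whereas MDA-MB-435 had 1.42-fold (1.28 to 1.57). MRPL1 was 0.856-fold (0.768 to 0.953) and 1.22-fold (1.08 to 1.37). MRPL2 and MRPL41 were 0.737-fold and 0.712-fold in MDA-MB-231, and their intervals in MDA-MB-435 (0.947 to 1.28 and 0.931 to 1.16) included no change. With 1 library per condition these differences between lines have no test.

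Members set apart by their place or their paralogues did not move one way. MRPL12, the L7/L12 protein of the stalk that recruits translation factors, went from 42 to 36.6 CPM in MDA-MB-231 and from 57.5 to 59.6 in MDA-MB-435 (common log2 difference -0.11, edgeR adjusted p = 0.702). Of the 3 paralogues of bacterial S18, MRPS18A, which sits in the large subunit, was 1.23-fold (1.09 to 1.4) and 1.15-fold (1.05 to 1.26), whereas MRPS18B was 0.802-fold (0.74 to 0.87) and 0.934-fold (0.885 to 0.985). MRPS18C was 0.917-fold (0.806 to 1.04) and 1.14-fold (1.01 to 1.29). MRPS18A and MRPS18B thus differed in direction in both lines beyond counting error, but neither passed the common test (edgeR adjusted p = 0.466 and 0.242). MRPS30, at 1.05-fold and 1.14-fold, and MRPS36, at 0.947-fold and 1.09-fold, had common log2 differences of 0.09 and -0.02. Moving MRPS30 and MRPS18A to the large subunit and leaving out MRPS36 gave a difference between the subunits of -0.02 in MDA-MB-231, and -0.01 in the other line.

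More members differed between the lines than after CPYPP. With treatment as a covariate in the same fit, 41 of 77 members were higher in MDA-MB-435 and 11 lower by edgeR's quasi-likelihood test at an adjusted p under 0.05 (53.2% and 14.3%), beside 30.5% and 32.4% of all genes. The median log2 difference between the lines was 0.42 over the members and -0.01 over all genes tested. Both subunits leaned the same way, with medians of 0.40 for the large and 0.42 for the small subunit. The lean was not particular to these genes. The 79 cytosolic ribosomal proteins had a median of 0.41, with 54.4% called higher in MDA-MB-435 and 8.86% lower. Translation factors and mitochondrial chaperones and proteases each had 0.51. The 5 ribosome proteins with other symbols (-0.69) and the messages of mitochondrial DNA (-0.27) leaned the other way. By size, 20.8% of members differed more than 2-fold between the lines, beside 40.8% of all genes. The control and CPYPP libraries of a line stand in for replicates in this test, and line and culture cannot be told apart.

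MRPS21, the homologue of the bacterial S21 protein, had the widest difference. Its level was 9.97 and 7.38 FPKM (counts scaled by library size, with TMM over the 4 libraries, and by the exon length in the table) in MDA-MB-231, against 43.8 and 40.4 for MDA-MB-435, with no overlap between the lines, a fold of 4.88 (log2 2.29, SE 0.155, edgeR adjusted p = 6.18e-07). MRPL34, MRPS26, MRPL10 (the stalk base) and MRPS22 followed with folds of 3.18, 2.69, 2.64 and 2.53. Each was higher in both libraries of MDA-MB-435 than in either of MDA-MB-231.

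On the other side stood MRPL14, at 88 and 78.7 FPKM in MDA-MB-231, against 31.8 and 42.8 for MDA-MB-435 (log2 -1.17, SE 0.158, edgeR adjusted p = 9.33e-05). Its difference between the lines was -1.47 in the controls and -0.88 after CPYPP on the log2 scale. MRPS36 came next, with 17.1 and 16.1 FPKM against 7.8 and 8.05 (log2 -1.07, SE 0.167, edgeR adjusted p = 0.00026). MRPS17, MRPS14 and MRPL42 were 0.532-fold, 0.601-fold and 0.612-fold.

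**Figure D4:**
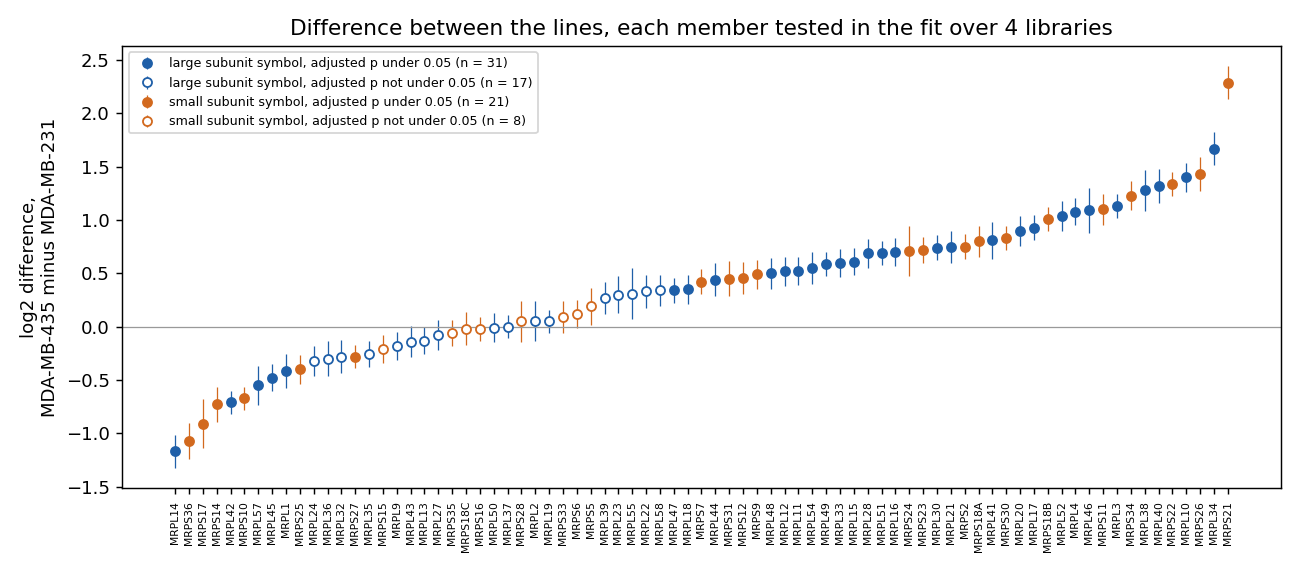
Log2 difference between the lines (MDA-MB-435 minus MDA-MB-231, y axis) of the 77 members tested, ordered by size (x axis), from the fit over 4 libraries, with bars of 1 SE, blue for large and orange for small subunit symbols and filled points for an adjusted p under 0.05. The points run from -1.17 for MRPL14 to 2.29 for MRPS21, and 41 filled points lie above 0 and 11 below.

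Levels between members spanned a wide range. The median FPKM over members in MDA-MB-231 was 12.9 before and 12.5 after CPYPP, while in MDA-MB-435 it was 17.4 and then 17.5. By the exon length in the table, the large subunit had higher medians than the small one in each library, 16.5 against 9.97, 14.2 against 10, 19.8 against 13.9 and 19.1 against 12.9. By the median over the 4 libraries the highest members were MRPS10 (87.7 FPKM), MRPL3 (69.5), MRPL51 (65), MRPL14 (60.8) and MRPS18B (55). The lowest were MRPL53 (0.276), MRPS5 (1.15), MRPL46 (1.65), MRPS25 (2.23) and MRPS24 (3.04). MRPL3 was above MRPL51 in the MDA-MB-435 libraries (93.6 and 101 against 81.8 and 77.5) and below it in MDA-MB-231 (45.4 and 43.6 against 52.5 and 46.5), so the order of these neighbours did not hold across libraries. MRPS10 was the highest member in both MDA-MB-231 libraries (108 and 108) but not in MDA-MB-435 (67.8 and 67.4), where MRPL3, MRPL51 and MRPS18B (78 and 69.1) were above it in both libraries.

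This order depends on the length used. The exon length in the table is the union over a gene's transcripts, and for 5 members it exceeds 10000 bases. These are MRPS27, MRPS25, MRPS22 and MRPS5 of the small subunit and MRPL42 of the large. With the median length of the coding transcripts of GENCODE release 29, MRPL49, MRPL51, MRPL42, MRPL3 and MRPL33 were the highest and MRPS10 was 7th. The Spearman rho between the 2 sets of levels was 0.551 over the 78 members. The medians of the subunits were not computed with the coding transcript length, so their order may also depend on the length used. MRPL53 was the lowest by either length, but a gene on the other strand overlaps all of it, so some of its reads may have been lost in counting.

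The genes around the mitochondrial ribosome give a frame for these values. The 5 further ribosome proteins with other symbols had medians of -0.25 in MDA-MB-231, and 0.07 in the other line, and 0 passed the common test by edgeR's quasi-likelihood method (1 at an unadjusted p under 0.05), with CHCHD1 lowest (-0.34) and DAP3 highest (0.36). Of 25 assembly factors (medians -0.15 and -0.03), 1 fell, the rRNA methyltransferase MRM1, at 0.589-fold and 0.446-fold (edgeR adjusted p = 0.0284), and RPUSD4 was the highest at 0.25. Of 17 translation factors (medians -0.10 and 0.02), 0 passed the common test (0 at an unadjusted p under 0.05), from TSFM at -0.62 to LRPPRC at 0.20. Of 4 mitochondrial transcription genes (medians 0.02 and 0.22), 1 fell, the RNA polymerase POLRMT, at 0.747-fold and 0.625-fold (edgeR adjusted p = 0.042), and TFB2M was the highest at 0.21.

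Among 9 regulators of nuclear genes for mitochondria (medians 0.16 and 0.35), 1 rose: GABPB1, a subunit of the ETS factor GABP, at 1.48-fold and 2.29-fold (edgeR adjusted p = 0.0115). The coactivator PPARGC1A was the lowest, at -0.88 on 11 to 129 counts. Of 13 mitochondrial chaperones and proteases (medians -0.07 and 0.19), 2 rose, the chaperonin HSPD1 and its partner HSPE1, with common log2 differences of 0.85 and 0.69, and CLPP was the lowest at -0.27.

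The 13 messages made from mitochondrial DNA, the templates of this ribosome, had a median of -0.49 in both lines. By edgeR's quasi-likelihood test 10 of the 13 fell and 0 rose, from MT-ND2 at -0.91 (adjusted p = 0.00161) to MT-ND6 at -0.20 (adjusted p = 0.384), the highest. The libraries were made from poly(A) RNA, so tail length and abundance cannot be told apart for these messages. The 79 cytosolic ribosomal proteins had medians of -0.11 and 0.21 and 0 passed the common test (0 at an unadjusted p under 0.05), from RPS26 at -0.15 to RPL39 at 0.20. With TMM within each line, their median, like that of the mitochondrial ribosomal protein genes, lay below 0 in MDA-MB-231 and above it in MDA-MB-435. Of the 79, 75 were lower in the first line and 78 higher in the second, where 51.2% and 51.4% of all genes were lower. The sign of the members' median in MDA-MB-435 depended on the scaling, and the cytosolic list was not examined under other scalings.

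**Figure D5:**
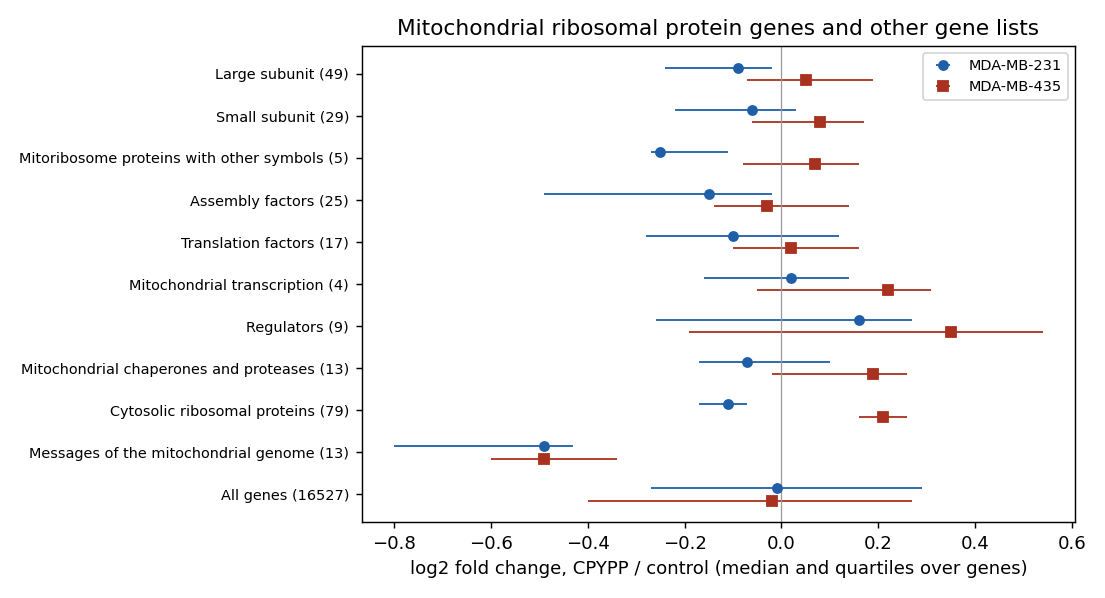
Median log2 fold change (CPYPP over control, x axis) with quartiles over genes as bars, for the 2 subunits, 8 other gene lists and all genes, in MDA-MB-231 (circles) and MDA-MB-435 (squares), with the number of genes tested in MDA-MB-435 in brackets. The messages of the mitochondrial genome lie at -0.49 in both lines, whereas the subunits lie within 0.09 of no change.

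The position of members next to other genes bears on how their counts can be read. Of the 78, 30 had another gene with at least 10 counts starting within 1000 bases on the other strand, and 28 overlapped a gene on the other strand. The strand setting of the counting is not given in the sources used here, so reads of overlapping genes could be assigned to either or lost. MRPL53, the member with the fewest counts, is overlapped over its whole length of 706 bases by an unnamed gene on the other strand. MRPL18 starts 109 bases from TCP1, which encodes a subunit of the cytosolic chaperonin and is read the other way. TCP1 was 1.5-fold (1.46 to 1.54) in MDA-MB-231, against 1.76-fold (1.72 to 1.81) in MDA-MB-435, and rose in the common test (log2 0.66, edgeR adjusted p = 0.00669), next to 1.38-fold and 2.03-fold for MRPL18. MRPL32 starts 191 bases from the proteasome gene PSMA2, which was 1.5-fold (1.04 to 2.17) and 3.44-fold (2.28 to 5.3) on 33 to 88 counts. PSMA2 did not pass the common test (log2 1.12, edgeR adjusted p = 0.13). MRPL46 and MRPS11, both members, start 63 bases apart, and MRPS11 was 0.825-fold and 1.02-fold against 0.675-fold and 0.849-fold for MRPL46.

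Members beside a gene that rose were not always called themselves. MRPL50 starts 233 bases from ZNF189, which rose (1.98-fold and 2.36-fold, edgeR adjusted p = 0.0038), while MRPL50 itself was at -0.01 and 0.29 on the log2 scale. MRPS14 overlaps CACYBP over 1239 bases on the other strand, and CACYBP rose (1.54-fold and 1.96-fold, edgeR adjusted p = 0.00387), while MRPS14 was at -0.22 and -0.17. MRPL21 starts 28 bases from IGHMBP2, which rose (1.47-fold and 1.6-fold, edgeR adjusted p = 0.0366), while MRPL21 was at -0.05 and 0.26. These pairs were picked after their values were seen.

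Promoter sequence was read from RefSeq (GRCh38.p14) for 69 members matched by symbol, as windows from 250 bases before to 50 bases after each start, with a gene counted when any of its windows held the motif on either strand. The core letters of ETS factors, CCGGAAG, were in 30 of 69 members (43.5%), beside 12.2% of all 27305 genes in that table and 21.4% of the 11540 of them that were tested in the fit. The letters AANATGGCG of YY1 were in 18 (26.1%), beside 3.85% and 7.59%. The letters CGCNTGCGC of NRF1 were in 14 (20.3%), beside 9.02% and 16.3%. The 8-letter heat shock pairs TTCNNGAA and GAANNTTC, which can share up to 3 letters, were in 9 (13%, beside 9.46% and 8.44%) and 6 (8.7%, beside 8.21% and 6.79%).

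The medians of members with and without a motif are a description of small groups, with no test. With the ETS letters the median log2 fold change was -0.06 in MDA-MB-231, and 0.04 for MDA-MB-435, and among the matched members without them it was -0.09 and 0.07. For the YY1 letters the medians were -0.05 and 0.11 with and -0.13 and 0.05 without. For the NRF1 letters they were -0.13 and 0.13 with and -0.06 and 0.06 without. The widest gap was that of GAANNTTC, held by 6 members, MRPL18 among them, with medians of 0.01 and 0.24 against -0.08 and 0.05 without, while for TTCNNGAA they were -0.08 and 0.09 against -0.07 and 0.06. Printed below are matches of MRPL18 and MRPL32, highest by common difference, and of MRPL16, MRPL34, MRPS26 and MRPS16 on the low side. MRPL46, lower than MRPS16, held the YY1 letters, and MRPL47, next after MRPL32, held the ETS letters. Those matches are not printed. The stretches run 5′ to 3′ on the gene's strand, with the match in capitals and 10 bases on each side, to show what lies at these starts.
MRPL18, heat shock pair, chr6:159789816-159789843, plus strand: ggaagaggttGAACCTTCgcctcaaacg
MRPL18, heat shock pair, chr6:159789868-159789895, plus strand: ttctagtgccTTCTAGAAaaggttgtaa
MRPL18, ETS letters on the other strand, chr6:159790431-159790457, plus strand: ggacttgctaCTTCCGGgtcggtggcg
MRPL16, ETS letters on the other strand, chr11:59810768-59810794, minus strand: gtgaacacaaCTTCCGGccccactgag
MRPL34, NRF1 letters on the other strand, chr19:17305627-17305655, plus strand: aatgccttgtGCGCACGCGcttgctcaga
MRPL34, NRF1 letters on the other strand, chr19:17305727-17305755, plus strand: cgcctctgttGCGCAGGCGcagaactaca
MRPS26, ETS letters on the other strand, chr20:3046005-3046031, plus strand: ccccgcgccgCTTCCGGggcacggtgg
MRPS16, ETS letters on the other strand, chr10:73252623-73252649, minus strand: ggatcatccgCTTCCGGagtcgaggtt
MRPL32, YY1 letters, chr7:42932374-42932402, plus strand: tccagcagggAAAATGGCGctggccatgc
MRPL32, YY1 letters on the other strand, chr7:42932143-42932171, plus strand: acccgcgctcCGCCATCTTtacccgaaga
In MRPL18 the 2 heat shock pairs begin 14 and 11 bases after 2 of its RefSeq starts, and the ETS letters begin 26 bases before another. MRPL48 and MRPL51 also held both pairs, and their log2 fold changes in MDA-MB-231 were 0.06 and -0.16, and those in MDA-MB-435 were 0.09 and 0.00. A match of letters does not show that a factor was bound.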

How the data were processed

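Counts per gene of 4 libraries (TRIzol total RNA, oligo(dT) selection) came from a table that the authors deposited, holding raw counts without normalization. The submitters' processing notes name cutadapt 1.9.1, HISAT2 2.2.1, HTSeq 0.6.1, DESeq2 and GRCh37.p13, while the positions in the table are those of GRCh38: all 78 members overlap their GENCODE release 29 position and 28 match it exactly. The table holds 0 other columns of per-sample values.

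Within a line, folds used TMM over its 2 libraries and genes with at least 10 counts in 1 of them, with counts of 3 or fewer set to 3 and 95% exact binomial (Clopper-Pearson) intervals. These cover counting error only, since PCR copies are not independent molecules. Common and line differences came from edgeR 4.0.16 (R 4.3.3, filterByExpr, TMM, quasi-likelihood test in its default setting, Benjamini-Hochberg over 16801 genes, threshold 0.05), with SE implied by the test statistic. Simulated data were used to check the calls and fitted sizes of the common difference, but not the SE or the line difference. DESeq2 1.42.0 was an alternative. Summaries used Python 3.11.15, pandas 2.3.3 and scipy 1.17.1. Depth was 17196385 to 22663954 counts, which at 550 to 1125 counts for the median member sets the counting interval. Of 79 pseudogene rows named after 36 members, 4 had at least 10 counts, the highest 112.

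Members, gene lists and motifs were chosen with earlier results of these data known. Named were the 8 highest and 8 lowest common differences, the 5 widest line differences each way, the 5 highest and lowest levels, the 4 widest opposite changes, the S18 paralogues, MRPS30, MRPS36 and MRPL12, the extremes and short counts of other lists, and neighbours picked after their values were seen.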

Additional observations from a re-analysis of the deposited data

Results flagged for a closer look

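Of the 29 members whose fold changes differed in sign between the lines, 3 did so beyond counting error in both, and each was lower in the CPYPP library of MDA-MB-231 and higher in that of MDA-MB-435. MRPL14 was at -0.15 and 0.50 on the log2 scale, MRPL1 at -0.22 and 0.28, and MRPL44, an RNase III-like protein of the large subunit, at -0.19 and 0.29. Whether they differ between the lines was not tested, as there is 1 library per condition. The signs of these 3 held under every scaling and filter run, but the counting intervals were not recomputed. For MRPL1 in MDA-MB-435 the lower bound was 0.11 on the log2 scale. Total counts shifted all genes of that line by -0.15, so its interval then includes no change.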

How the results depend on the processing

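With 1 library per condition, leaving out a replicate was not possible, and no paired analysis was possible because the groups share no replicate numbers beyond the first, other than the pairing of control and CPYPP by line, which the common test already holds as a block. The median of the members in MDA-MB-231 was -0.14 with total counts, -0.12 with upper quartile scaling and -0.11 with no filter. In MDA-MB-435 it was -0.08, -0.04 and 0.05 with these 3, 0.08 with DESeq2 size factors, 0.03 and 0.00 with at least 10 and 100 counts in both libraries, and -0.01 with TMM over the 4 libraries, an alternative chosen after seeing the data. With no filter the median of all genes moved by 0.21 in MDA-MB-231, and 0.19 in the other line. Members past 0.32 log2 units numbered 17 with total counts in each line (in MDA-MB-231 split into 1 higher and 16 lower, in MDA-MB-435 into 3 and 14), and 3 in each line past 1.5-fold. In MDA-MB-435 the split was 3 higher and 10 lower with upper quartile scaling and 4 and 7 with TMM over the 4 libraries. Large minus small in MDA-MB-435 was 0.04 from summed counts. Members with a common effect numbered 5 with total counts, 5 with DESeq2's Wald test and 0 with the line left out of the model, where the other lists' calls went from 15 to 0, and MRPL16 and MRPL18 were among those called in each setting but that last one. The median level of the members was 15.6 FPKM with the table's length and 38.2 with coding transcript length, also chosen after seeing the data. The line differences stayed between 38 and 53 members called. The planned setting legacy=TRUE is the tool's default, and legacy=FALSE, added later, gave 2 members and 11 genes of other lists. At 1 to 11 counts per library, no change of MRPL53 was detectable at this depth. Whether reads were lost to the gene that overlaps it on the other strand was not tested.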
